A study of Mus musculus with 22 samples.

Results

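The MYC, MAX and MXD network is a small family of transcription factors that read the same DNA element through a shared partner. Its 10 members in this study, Myc, Mycn, Mycl, Max, Mxd1, Mxd3, Mxd4, Mxi1, Mnt and Mlx, were taken by gene symbol from the 24454 symbols of the count table. The 22 libraries were made by SMART-Seq2, a full-length poly(A) RNA method for few cells, from 25 sorted cells each of the aorta-gonad-mesonephros (AGM) region of C57BL/6 mouse embryos, the site where endothelial cells give rise to the first haematopoietic stem and progenitor cells. All cells were sorted as VE-Cadherin positive, were neither cultured nor treated, and differed in surface CD44 and Kit. CD44Neg cells, labelled endothelial cells, had 10 libraries (3 from embryonic day E11, 3 from E10 and 4 from E9.5). CD44LowKitNeg cells, labelled hemogenic endothelial cells, had 6 (3 from E11, 2 from E10 and 1 from E9.5). CD44LowKitPos cells, labelled Pre-HSPC, had 3 (1 at E9.5 and 2 at E10), and CD44High cells, labelled HSPC, had 3, all at E11. The labels name no mutant allele and no agent for any group.

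MYC, MYCN and MYCL bind the E-box as heterodimers with MAX and activate genes of growth, ribosome production and metabolism. MXD1, MXD3, MXD4, MXI1 and MNT compete for MAX and bring the SIN3 and histone deacetylase corepressors to the same sites. MLX is the partner of MondoA (Mlxip) and ChREBP (Mlxipl), which respond to glucose-derived metabolites, and also dimerises with MXD1, MXD4 and MNT. Myc and Mycn are known to act redundantly in blood stem cells.

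The labels were checked against marker genes before the members were read. Library totals ran from 3912350 to 8657546 counts, and 10825 to 12627 genes had a count. Levels are given in normalized CPM (counts scaled to a common library size by the TMM method), as mean ± SD throughout. Cd44 averaged 29.9 ± 19.5 normalized CPM in CD44Neg and 254 ± 78.7 in CD44LowKitNeg. It averaged 257.3 ± 85.2 in CD44LowKitPos and 267.7 ± 87.2 in CD44High. The level of Cd44 RNA therefore did not set CD44High apart from the CD44Low populations. Kit averaged 46.9 ± 17.3 in CD44LowKitNeg, 229.7 ± 50.1 in CD44LowKitPos and 75.9 ± 40.9 in CD44High. In the 3 CD44High libraries Cdh5, the gene of VE-Cadherin, was at 0 and all 9 macrophage markers were detected, with a summed level of 4002 to 6250 normalized CPM against 212 to 303 in CD44LowKitPos, where Adgre1, C1qa, C1qb and C1qc were at 0. The 3 E11 CD44LowKitNeg libraries had no count of Runx1, Myb or Gfi1b and a summed level of the 7 blood markers of 3.75 to 16.1 normalized CPM, against 83.8 to 263 in the 3 earlier libraries of that population. These libraries also had lower summed levels of 12 cycling genes (680 to 1157 against 1880 to 4015). The part of these differences in the results below was not tested. The date string in the sample labels changed with stage, so stage and date cannot be told apart. The titles of all CD44LowKitPos and CD44High libraries carry the letters KG, and no CD44Neg or CD44LowKitNeg title does. What the letters mark is not stated, so it cannot be told apart from population in comparisons across this split. In bulk libraries, fewer cells of a type and less RNA per cell cannot be told apart. Nothing in the sources says that libraries came from separate embryos, so p-values measure only the spread between these samples, which may be technical.

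The E-box that the network reads, CACGTG, was searched in RefSeq promoter windows (GRCm38.p6, from 250 bases before to 50 after the start site), held for 9 of the 10 members, all but Myc. It was present in the windows of 4 members, Max, Mxd4, Mnt and Mlx, and in 2349 of 32851 windows overall (7.15%). The stretches around these matches are shown because they place the network's own element at genes of the network, with the E-box in capitals. They are followed by the Mycn stretch, shown because Mycn had the largest single change among the members, that from CD44LowKitPos to CD44High. Its matches to the E2F motif (TTTGGCGC or TTTCGCGC, both strands) are in capitals.
Max, chr12:76962234-76962263, minus strand: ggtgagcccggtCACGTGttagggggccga
Mxd4, chr5:34187912-34187941, minus strand: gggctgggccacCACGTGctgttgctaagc
Mnt, chr11:74830789-74830818, plus strand: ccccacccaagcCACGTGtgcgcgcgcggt
Mlx, chr11:101087238-101087267, plus strand: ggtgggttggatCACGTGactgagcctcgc
Mycn, chr12:12941985-12942031, minus strand: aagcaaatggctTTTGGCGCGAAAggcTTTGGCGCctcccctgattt

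The E-box reads the same on both strands. In Max the stretch spans the RefSeq start site (from -15 to 14 bases), and in Mlx it lies at -52 to -23, in Mnt at -135 to -106 and in Mxd4 at -231 to -202. The Mycn stretch lies at -195 to -149 and holds 3 matches to the E2F motif, a pair of which overlap on opposite strands. E2F matches were found in 267 of 32851 windows (0.813%), 8 of which held 2 or more (0.0244%), and among the members with a window only Mycn had one. A match is a description of the letters and no measurement of binding.

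Myc (chr15:61985391-61990374, plus strand, 3 exons, GRCm38 with GENCODE M21), the member best known for driving growth, was lower in CD44LowKitNeg than in either neighbouring population. In the CD44Neg libraries Myc lay between 53.9 and 120.8 normalized CPM with a median of 106.9. The 3 E11 CD44LowKitNeg libraries stood at 39.1, 26.5 and 13.01, the E9.5 library at 25.4 and the E10 libraries at 25.0 and 23.3. Every CD44LowKitNeg library was therefore below every CD44Neg library. Libraries of these groups did not overlap, in whichever direction, for 5.58% of all genes tested. For CD44LowKitPos that share was 16.9% against CD44LowKitNeg and 9.66% against CD44Neg. For CD44High it was 23.9% against CD44LowKitPos, 25.3% against CD44LowKitNeg and 18.8% against CD44Neg. Between E11 and earlier CD44LowKitNeg libraries it was 25.3%. The CD44LowKitPos libraries were back at 107.3 and 89.2 (E10) and 92.9 (E9.5), and the CD44High libraries stood highest, at 172.4, 172.0 and 188.5. The groups' means were 100.3 ± 22.2 (CD44Neg, n = 10), 25.4 ± 8.34 (CD44LowKitNeg, n = 6), 96.5 ± 9.56 (CD44LowKitPos, n = 3) and 177.7 ± 9.42 (CD44High, n = 3).

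**Figure D1:**
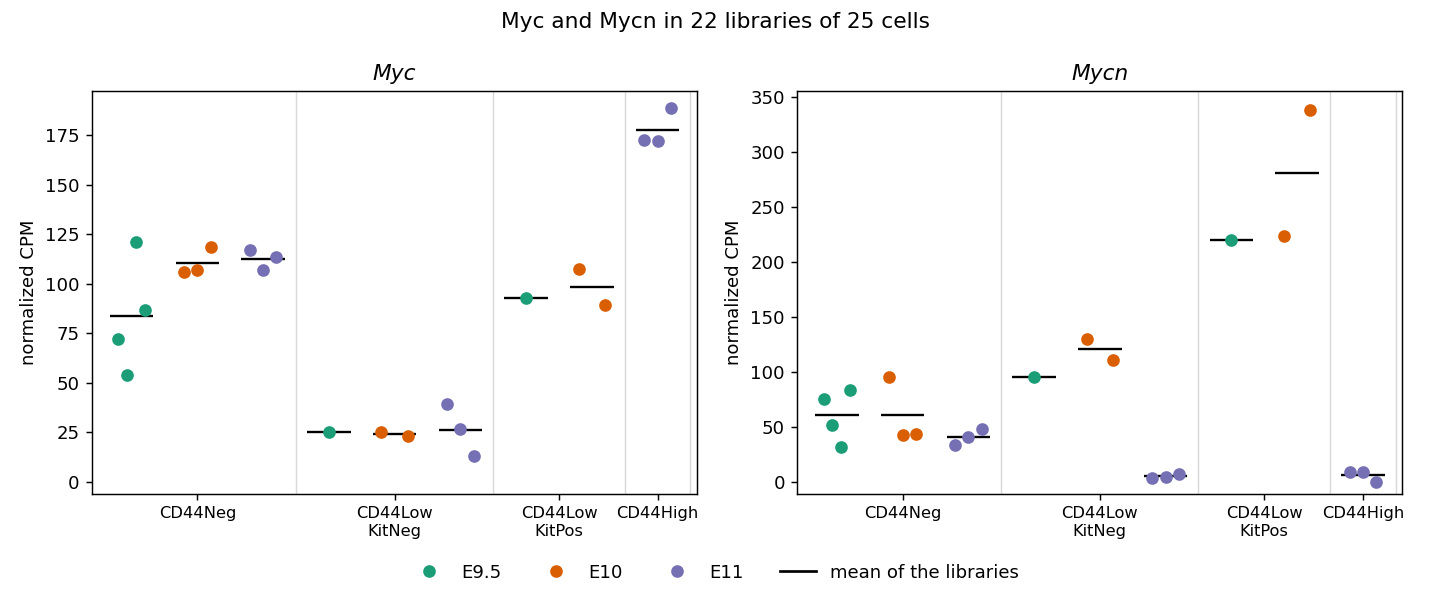
Myc and Mycn in each of the 22 libraries, in normalized CPM, by population and embryonic stage; each dot is 1 library and each bar the group mean. Myc is lowest in the 6 CD44LowKitNeg libraries (13.01 to 39.1), whereas Mycn is high in the CD44LowKitPos libraries (219.4 to 338.3) and near 0 in the CD44High and the E11 CD44LowKitNeg libraries.

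Between the endothelial populations Myc fell by 1.97 on the log2 scale in CD44LowKitNeg (SE 0.24, 3.93-fold lower, adjusted p = 1.71e-05 edgeR's quasi-likelihood test, with the Benjamini-Hochberg method over all genes). It was the single member of the 9 tested to pass the threshold of 0.01 in this comparison, in which 10.2% of all 11022 genes tested passed, so the share of members called was close to the background. The summed neural markers also differed without overlap, at 30.5 to 117.4 normalized CPM in CD44Neg and 6.99 to 22.95 in CD44LowKitNeg. Nearly all of this was Nes, a gene that endothelial cells can also express (29.9 to 117.4 and 6.86 to 22.8), Elavl3 and Neurog2 were at 0 in both and Sox2 and Pax6 in CD44LowKitNeg, and the part of these in the result was not tested. The drop was 2.04 in size within E11 alone and 2.12 within E10 alone, with adjusted p = 0.0124 and 0.0380 in these smaller edgeR fits. Its mean in CD44LowKitNeg was 24.6 ± 1.13 in the earlier libraries and 26.2 ± 13.1 at E11 (n = 3 each), so the low level of Myc was present both in the libraries with Runx1 counts and in those with none.

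Myc was higher in CD44LowKitPos than in CD44LowKitNeg, with no overlap of libraries, by 1.92 on the log2 scale (SE 0.26, 3.80-fold, edgeR adjusted p = 0.000136). It was 1 of 9 members called there, where 4.26% of 12949 genes were called. Summed macrophage markers were at 212 to 303 normalized CPM in CD44LowKitPos against 0 to 73.5 in CD44LowKitNeg. Blood markers were at 439 to 1264 against 3.75 to 263, and endothelial markers at 417 to 915 against 2116 to 5050. The part of these in the rise was not tested. Against CD44Neg, Myc in CD44LowKitPos differed by -0.06 (SE 0.26, edgeR adjusted p = 0.952), with overlapping libraries. With the E9.5 and E10 libraries alone and stage as a covariate, the rise from CD44LowKitNeg to CD44LowKitPos was 1.94 with an edgeR adjusted p of 0.0493.

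In CD44High, Myc exceeded CD44LowKitNeg by 2.81 on the log2 scale (SE 0.27, 6.99-fold, edgeR adjusted p = 5.17e-08), 1 of 9 members called where 16% of all genes were called. This call was kept in every alternative fit that was run, with adjusted p of at most 0.0041. The CD44High libraries also stood above all CD44LowKitPos libraries, by 0.88 (SE 0.32, 1.84-fold), where 23.9% of all genes had no overlap. They stood above all CD44Neg libraries too, by 0.82 (SE 0.24, 1.77-fold), where 18.8% of all genes had no overlap. Neither difference passed the threshold (edgeR adjusted p = 0.114 and 0.0151). DESeq2 and limma voom gave adjusted p = 0.00934 and 0.00605 for the latter. In these same libraries the summed macrophage markers were at 4002 to 6250 normalized CPM, the 9 erythroid markers at 86.3 to 338.5 (16.7 to 26.8 in CD44LowKitPos, with Hba-a1 and Hba-a2 at 0 in both) and the 8 mesenchyme markers at 0.272 to 150.8 (0.155 to 16.3), and their part in the Myc level was not tested.

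Mycn (chr12:12936093-12941914, minus strand, 3 exons), the paralogue best known from neural and other embryonic progenitors, followed another course. CD44Neg libraries lay between 32.0 and 95.3 normalized CPM with a median of 45.5. In CD44LowKitNeg the E9.5 library stood at 95.05 and the E10 libraries at 130.2 and 110.8, whereas the E11 libraries stood at 3.76, 4.53 and 6.82, from 28 to 44 counts. The population thus split by stage with no library in between. CD44LowKitPos had the highest levels, 223.5 and 338.3 at E10 and 219.4 at E9.5. The 3 CD44High libraries were at 8.51, 9.05 and 0, from 43, 34 and 0 counts, where a count of 0 allows up to 3 counts, or 0.82 normalized CPM (this floor covers counting error only).

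From CD44LowKitPos to CD44High Mycn fell by 5.45 on the log2 scale (SE 1.19, 43.9-fold lower in the fit, edgeR adjusted p = 0.00484), with no overlap of libraries. It was 1 of 9 members called, where 3.01% of all genes were called. These populations share no stage, so stage cannot be told apart from population here, and with stage as a covariate the drop was 3.48 with an edgeR adjusted p of 0.0582. Limma voom gave -6.81 with an adjusted p of 0.0622. In the CD44High libraries the macrophage markers were at the level given above, Cdh5 was at 0, and Rn45s took 16.6% to 23.9% of counts against 6.82% to 9.26% in CD44LowKitPos, and the part of these in the drop was not tested. The adjusted p was 0.0184 without CD44High replicate 20, 0.0189 without replicate 21, 0.0234 without replicate 22 and 0.0132 without CD44LowKitPos replicate 18. Mycn in CD44High was also below every CD44Neg library, by 3.20 (SE 1.002, 9.20-fold lower, edgeR adjusted p = 0.0218), a comparison in which no member of 9 passed the threshold by edgeR, 2 had an unadjusted p under 0.05, DESeq2 called 2 (Myc and Mycn), limma voom 1 (Myc), and 14.4% of all genes passed.

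Within CD44LowKitNeg, Mycn fell by 4.43 on the log2 scale from E9.5 and E10 to E11 (SE 0.40, 21.6-fold lower, edgeR adjusted p = 0.00533). The means were 5.04 ± 1.59 and 112 ± 17.6 (n = 3 each). It was 1 of 9 members called in a comparison in which only 19 of 11010 genes, 0.173%, passed. Leaving out any 1 of the 6 libraries (CD44LowKitNeg replicates 11 to 16) gave an adjusted p between 0.0133 and 0.0508, while the drop stayed within log2 differences of -4.71 to -4.25. Limma voom gave an adjusted p of 0.0147 and DESeq2 one of 3.12e-22. Beside it stand the absence of Runx1, Myb and Gfi1b counts and the lower cycling genes in the E11 libraries. The ribosomal transcript Rn45s took 17.4% to 19.2% of counts there against 7.29% to 11.1% earlier. Summed macrophage markers were at 0 to 9.95 normalized CPM against 38.1 to 73.5, and endothelial markers at 4717 to 5050 against 2116 to 3041. Erythroid markers were at 32.2 to 61.3 against 13.8 to 31.9, and mesenchyme markers at 8.15 to 63.0 against 4.19 to 20.3. The part of all these in the drop was not tested.

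In CD44Neg the 3 stages had Mycn means of 60.7 ± 23.4 (E9.5, n = 4), 60.4 ± 30.3 (E10, n = 3) and 40.6 ± 7.24 (E11, n = 3), and E11 differed from E9.5 by -0.56 (SE 0.38, edgeR adjusted p = 0.519). Myc there was 83.5 ± 28.3, 110.5 ± 6.96 and 112.5 ± 5.23, a difference of 0.45 between E11 and E9.5 (SE 0.25, edgeR adjusted p = 0.394). No member passed in that comparison by edgeR, DESeq2 or limma voom, none had an unadjusted p under 0.05, and 0.684% of all genes passed. The test of whether the difference between the endothelial populations itself changed from E10 to E11 gave -4.02 for Mycn (SE 0.59, unadjusted p = 1.1e-05, edgeR adjusted p = 0.0169). At E10 both CD44LowKitNeg libraries were above the 3 CD44Neg libraries, and at E11 all 3 were below. By edgeR this test called no member and 1 gene in all, 0.00806%, while DESeq2 gave Mycn an adjusted p of 1.38e-06.

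The pooled comparison of CD44LowKitNeg with CD44Neg therefore hid opposite values, a difference of 0.10 for Mycn over all stages (SE 0.59, edgeR adjusted p = 0.936), -2.95 within E11 (adjusted p = 0.0082) and 0.90 within E9.5 and E10 with stage as a covariate (adjusted p = 0.0987). Towards CD44LowKitPos the rise was 2.15 over all CD44LowKitNeg libraries (SE 0.81, 4.45-fold, edgeR adjusted p = 0.0808) and 1.18 over the earlier ones (adjusted p = 0.264), again without overlap. Limma voom called the rise over all stages, at 3.46 (adjusted p = 0.000726). Against CD44Neg, CD44LowKitPos had 2.25 more on the log2 scale (SE 0.71, 4.77-fold, edgeR adjusted p = 0.0526) with no overlap, and 2.07 within E9.5 and E10 (adjusted p = 0.00257). In that comparison edgeR called no member over all stages, 2 had an unadjusted p under 0.05, limma voom called Mycn, DESeq2 none, and 3.48% of all genes were called. From CD44LowKitNeg to CD44High Mycn differed by -3.30 (SE 1.03, edgeR adjusted p = 0.0198) with overlapping libraries, and by -4.27 against the earlier CD44LowKitNeg libraries (adjusted p = 0.000141). Within E11, the one stage both populations share, the direction turned, with a difference of 0.12 (adjusted p = 0.965).

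Mycl (chr4:122995652-123002485, plus strand), the remaining paralogue, was at 0 in 19 of 22 libraries. Counts appeared in CD44Neg replicate 4 (8 counts, 1.52 normalized CPM) and in CD44High replicates 20 and 22 (15 and 28 counts, 2.97 and 7.62 normalized CPM). It did not pass the filter on low counts and was not tested. The floor of 3 counts corresponds to 0.35 to 0.82 normalized CPM across the libraries, which bounds the level that a count of 0 allows.

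Per kilobase of transcript the paralogues can be set beside each other. In CD44Neg Myc made up 67.6% ± 11.9 of the summed Myc, Mycn and Mycl level and Mycn 32.3% ± 11.8, with Myc above Mycn in 10 of 10 libraries. In the 3 earlier CD44LowKitNeg libraries Mycn made up 79.7% ± 2.80 and in CD44LowKitPos 69.6% ± 6.43, with Mycn above Myc in all 3 of each. At E11 the order was the other way, with Mycn at 17.4% ± 12.4 in CD44LowKitNeg and 2.83% ± 2.46 in CD44High, where Myc was 95.9% ± 1.31. Mycn was thus the leading paralogue in the CD44Low libraries of E9.5 and E10 and in no other library.

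**Figure D2:**
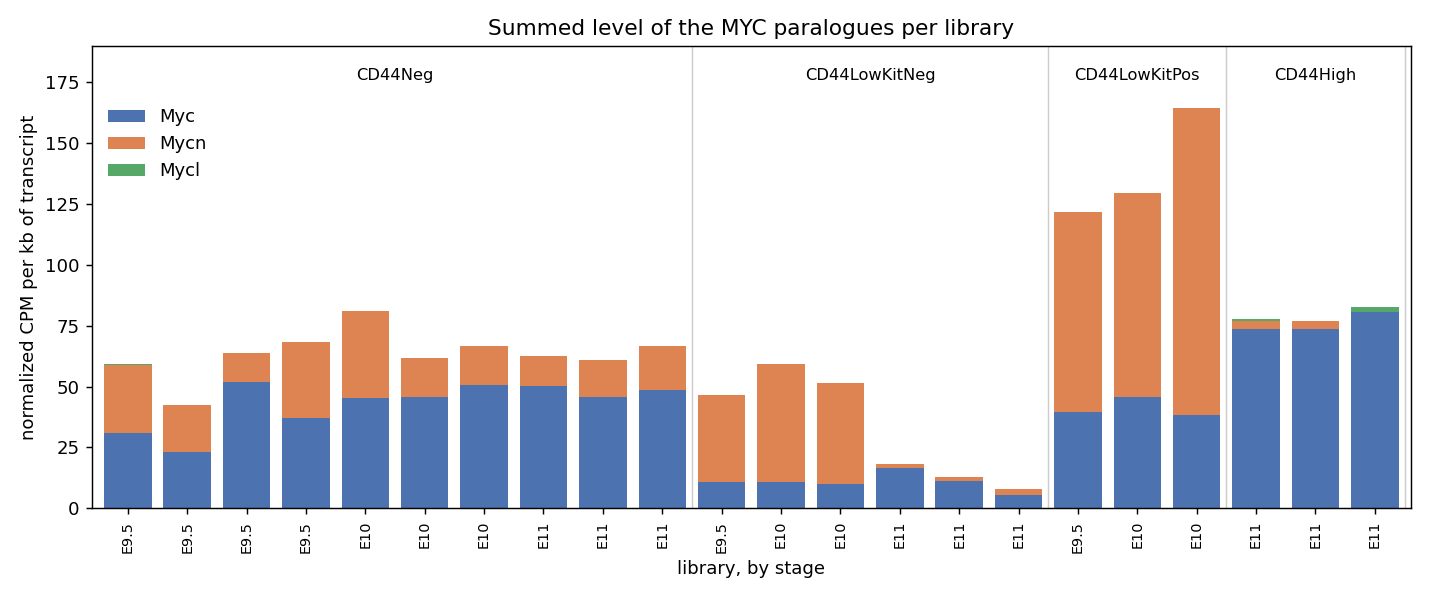
Stacked level of Myc, Mycn and Mycl in each library, in normalized CPM per kilobase of transcript; bars start at 0 and each bar is 1 library. Mycn makes up most of the bar in the E9.5 and E10 CD44LowKitNeg and CD44LowKitPos libraries, and the sum is smallest in the E11 CD44LowKitNeg libraries (8.11 to 18.1).

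The summed level was 63.3 ± 9.53 normalized CPM per kilobase in CD44Neg, 52.4 ± 6.56 in earlier CD44LowKitNeg, 13.1 ± 5.01 in E11 CD44LowKitNeg, 139 ± 22.9 in CD44LowKitPos and 79.2 ± 3.17 in CD44High. The earlier CD44LowKitNeg libraries thus lay near CD44Neg in the sum while their Myc was lower, and the E11 libraries were below every other library. The sum of Mxd1, Mxd3, Mxd4, Mxi1 and Mnt was smaller on average, at 11.02 ± 5.36 in CD44Neg, 10.8 ± 4.91 in CD44LowKitNeg, 6.14 ± 3.37 in CD44LowKitPos and 8.92 ± 0.98 in CD44High. The ratio of the first sum to the second ranged from 0.533 to 4.46 in E11 CD44LowKitNeg and from 16.2 to 56.4 in CD44LowKitPos, with CD44Neg between 2.77 and 14.2. These ratios rest on low counts of the antagonists and were not tested.

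Max (chr12:76937269-76962201, minus strand), the obligate partner, was a low transcript in all populations. Its means were 14.5 ± 6.20 normalized CPM in CD44Neg, 10.3 ± 5.82 in CD44LowKitNeg, 19.7 ± 10.7 in CD44LowKitPos and 19.8 ± 4.55 in CD44High, with overlapping libraries between each pair of populations. Within CD44LowKitNeg the E11 libraries (4.14 to 8.67) were below the earlier ones (11.4 to 20.5), and 25.3% of all genes had no overlap there. The difference of -1.20 (SE 0.80) did not pass the edgeR test (adjusted p = 0.526). Per kilobase, Max was below Myc in every population and below Mycn in CD44Neg, CD44LowKitPos and the earlier CD44LowKitNeg libraries on average, while in the 3 E11 CD44LowKitNeg libraries Max (2.84, 2.13 and 4.47) was above Mycn (1.41, 1.69 and 2.55).

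Mxi1 (chr19:53310518-53375810, plus strand), a MAX partner that represses, had the highest mean among the antagonists in CD44LowKitNeg on the normalized CPM scale. Its level was 16.2 ± 7.45 there (5.80 to 23.9) against 4.79 ± 4.29 in CD44Neg (0 to 11.9), a difference of 1.76 on the log2 scale (SE 0.71, unadjusted p = 0.0212, edgeR adjusted p = 0.0849). The groups overlapped and the difference did not pass. CD44LowKitPos libraries were at 0, 14.1 and 7.69, and CD44High at 11.7, 14.6 and 9.25. In the annotation Mxi1, Mxd3, Mxd4 and Mlx overlap genes on the opposite strand, and Max and Mxd1 genes on the same strand. Without a stated strand setting the reads of the former and their neighbours cannot be told apart, and the levels and ranks of all 6 carry this limit.

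The other antagonists had few counts. Mxd3 (chr13:55325168-55329823, minus strand), which is known from cycling progenitors, averaged 10.1 ± 5.91 normalized CPM in CD44Neg, 4.37 ± 3.58 in CD44LowKitNeg, 1.36 ± 2.09 in CD44LowKitPos and 2.73 ± 1.29 in CD44High. The highest CD44LowKitPos library (3.77) was just below the lowest CD44Neg library (3.79), and the edgeR difference of -2.88 (SE 1.24) had an adjusted p of 0.177. Mxd1 (chr6:86647042-86669161, minus strand), linked to differentiation, ranged from 0 to 22.2 in CD44Neg and averaged 7.04 ± 3.64, 10.6 ± 6.08 and 11.2 ± 5.76 in the populations from CD44LowKitNeg to CD44High. Mxd4 (chr5:34173883-34187720, minus strand) averaged 3.42 ± 4.12 in CD44Neg and 6.71 ± 4.70 in CD44LowKitNeg, and Mnt (chr11:74830920-74845725, plus strand), the broadly expressed antagonist, 2.32 ± 2.46 and 4.69 ± 2.47. None of these 4 genes or Mxi1 passed in any of the 9 comparisons by edgeR or DESeq2, or in the 8 without an interaction by limma voom, which was not run for the other one, and 2 of their 45 edgeR tests had an unadjusted p under 0.05.

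**Figure D3:**
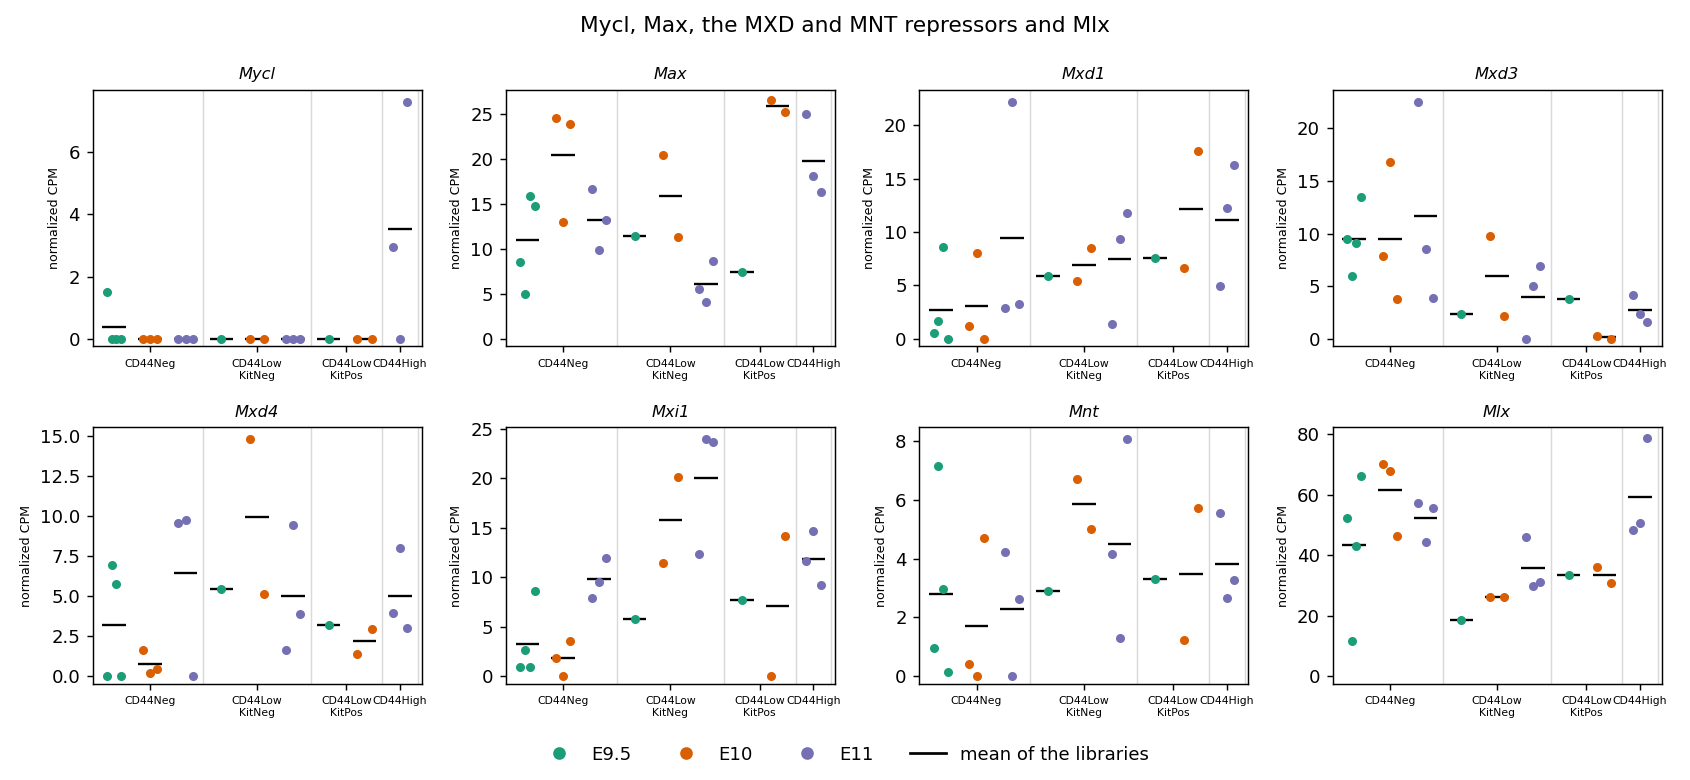
The 8 members other than Myc and Mycn in each library, in normalized CPM by population and stage, with each panel on its own axis; dots are libraries and bars group means. Libraries of different populations overlap in most panels, and Mycl is at 0 in 19 of 22 libraries.

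Mlx (chr11:101087277-101092207, plus strand), the bridge to the glucose-sensing MondoA arm, ranked 2 or 3 among the members per kilobase in every population over all stages, and 1 in E11 CD44LowKitNeg, where its mean was 18.2 against 11.2 for Myc. Its means were 51.5 ± 17.04 normalized CPM in CD44Neg (11.7 to 70.2), 29.7 ± 9.12 in CD44LowKitNeg (18.5 to 46.0), 33.5 ± 2.66 in CD44LowKitPos and 59.3 ± 16.98 in CD44High. The difference of -0.79 between the endothelial populations (SE 0.30, edgeR adjusted p = 0.0702) did not pass, but CD44Neg replicate 5 was far below the others, and without it the difference was -0.91 with an adjusted p of 0.00988. In CD44High all 3 libraries were above all CD44LowKitNeg libraries, by 0.999 (SE 0.37, edgeR adjusted p = 0.0456). This difference did not pass, and 25.3% of all genes had no overlap in that comparison.

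In order of mean level per kilobase, Myc (42.9 ± 9.51) led in CD44Neg, before Mlx (26.2 ± 8.67) and Mycn (20.4 ± 8.28), the last pair within their spread. In CD44LowKitPos Mycn (97.4 ± 25.3) came before Myc (41.3 ± 4.09) and Mlx (17.04 ± 1.35), and the ranges of these 3 did not overlap. In CD44High Myc (76.0 ± 4.03) came before Mlx (30.2 ± 8.64) and Max (10.2 ± 2.34), with all other members at or below 2.39. In CD44LowKitNeg the first 3, Mycn, Mlx and Myc, lay within their spread, since Mycn ran from 1.41 to 48.7 over the stages. Among the antagonists Mxd3 (7.64 ± 4.46) led in CD44Neg, where every library of Mxi1, Mxd4 and Mnt was below its lowest library.

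**Figure D4:**
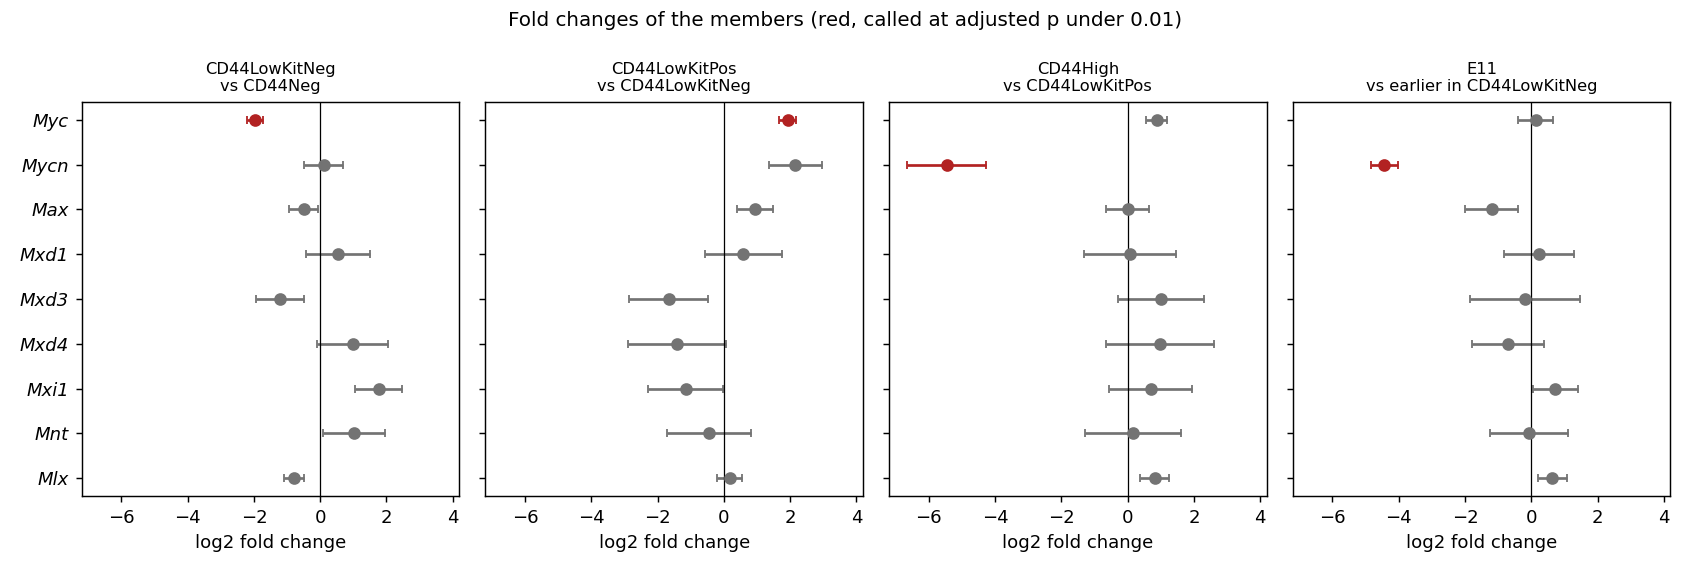
Log2 fold change and standard error of the 9 tested members in 4 comparisons, with members past the threshold of 0.01 by edgeR in red. Myc passes between the endothelial populations (-1.97) and from CD44LowKitNeg to CD44LowKitPos (1.92), and Mycn passes from CD44LowKitPos to CD44High (-5.45) and between stages of CD44LowKitNeg (-4.43).

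Over the 9 population-and-stage groups, the genes whose mean log2 level was most like that of Myc were Gemin4 (Pearson r = 0.973), Eif3d, Rpl19, Twf2 and Gnb2l1 (0.969), among 12948 genes compared. For Mycn they were Wdfy1 (0.957), Smpdl3b, Snord69, Txnrd1 and Ikzf5 (0.930). Snord69 was near the floor, with group means from 0.088 normalized CPM in E11 CD44LowKitNeg to 3.20 in E10 CD44LowKitPos. The points share libraries and depth, and the values are a description.

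Around the members, the further network factors Mga, a large repressive MAX partner, and Mlxip did not pass between the endothelial populations, with 103 ± 26.4 against 70.5 ± 29.5 and 41.3 ± 18.4 against 43.6 ± 17.4 normalized CPM in CD44LowKitNeg and CD44Neg. Mlxipl was not tested, having at most 1 count. None of these had an unadjusted p under 0.05, and DESeq2 and limma voom called neither. Of 12 genes of the MXD and MNT corepressor complex, 2 rose in CD44LowKitNeg and none fell, with a median log2 change of -0.20 beside 0.01 over all genes, of which 10.2% were called, a share near that of the list. They were the deacetylase Hdac2 (0.83, SE 0.17, edgeR adjusted p = 0.0022) and the corepressor Ncor1 (0.82, SE 0.21, edgeR adjusted p = 0.0096). DESeq2 and limma voom each called 1 further gene of the list lower.

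Among 12 MYC cofactors, Ruvbl1 and Ruvbl2, paired ATPases of chromatin-remodelling complexes, were called lower in CD44LowKitNeg than in CD44Neg (-1.21 and -1.77, SE 0.29 and 0.30, edgeR adjusted p = 0.0059 and 0.00035) and higher again in CD44LowKitPos than in CD44LowKitNeg (1.52 and 1.91, SE 0.34 and 0.36, edgeR adjusted p = 0.0062 and 0.0021). The median of the list was -0.28 in the first comparison. Beside these pairs of calls among 12 genes, 10.2% of all genes were called in the first comparison, near the share of the list, and 4.26% in the other. Txnip, the best known target of MondoA and MLX, rose from 99.5 ± 43.5 to 203 ± 49.7 normalized CPM in CD44LowKitNeg (1.04, SE 0.27, edgeR adjusted p = 0.0091), whereas the related Arrdc4 had 0.79 (SE 0.54) and did not pass. Within E11 alone no gene of the corepressor, cofactor and MondoA target lists passed by edgeR, and within E9.5 and E10 1 cofactor did.

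Of 9 regulators of Myc transcription, 8 were tested between the endothelial populations. Lef1, a nuclear effector of Wnt signalling, fell from 35.5 ± 12.9 to 4.36 ± 3.01 normalized CPM in CD44LowKitNeg (-3.01, SE 0.42, edgeR adjusted p = 6.8e-05). Ctnnb1, the gene of beta-catenin, rose from 617 ± 125 to 1589 ± 343 (1.37, SE 0.15, edgeR adjusted p = 8.4e-06). The median of the list was 0.62, and 10.2% of all genes were called. From CD44LowKitPos to CD44High 3 of the 8 tested fell, Lef1, Tcf7 and Ctnnb1, where 3.01% of all genes were called, and 1 fell without CD44High replicate 20 or 21. In CD44High 6 of the 8 were lower than in CD44LowKitNeg, where 16% of all genes were called, and 7 were lower and 1 higher than in CD44Neg, where 14.4% were called, or 4 lower and 1 higher without CD44High replicate 21.

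Genes reported to be activated by MYC, mainly of ribosome production, polyamine and nucleotide synthesis and glycolysis, numbered 40 and all were tested. Between CD44Neg and CD44LowKitNeg 15 fell and none rose, with a median log2 change of -1.08 beside 0.01 over all genes and 38 of 40 negative, where 10.2% of all genes were called. Among the genes called, the largest drops were those of Odc1, the first enzyme of polyamine synthesis, from 88.9 ± 29.4 to 22.8 ± 9.88 normalized CPM (-1.96, SE 0.29, edgeR adjusted p = 0.00011), Ldha, lactate dehydrogenase, from 2157 ± 462 to 613 ± 171 (-1.81, SE 0.20, adjusted p = 5.7e-06), and Nme1, a nucleoside diphosphate kinase, from 921 ± 307 to 307 ± 146 (-1.58, SE 0.28, adjusted p = 0.00049). The count was 11 within E11, 6 within E9.5 and E10, and 0 of 39 within E10, in fits that called 376, 449 and 1 of all genes. Of 12 cycling genes 2 fell in the same comparison, Mcm2 and Mcm5 (-0.98 and -1.29), and all 12 were negative, and the part of cycling in the levels was not tested. The 12 were also all positive from CD44LowKitNeg to CD44LowKitPos (median 1.02) and to CD44High (1.299), and all negative from the earlier to the E11 CD44LowKitNeg libraries (-1.77), and their part in those comparisons was not tested.

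From CD44LowKitNeg to CD44LowKitPos 16 of the 40 rose and none fell, with a median of 1.39 beside -0.02 over all genes, of which 4.26% were called. Among them were Srm, spermidine synthase (115.5 ± 47.2 to 487 ± 113 normalized CPM, 2.07, SE 0.34, edgeR adjusted p = 0.00061), and Nop56, a nucleolar protein of ribosome assembly (141 ± 87.8 to 536 ± 111, 1.92, SE 0.36, adjusted p = 0.0019). The count was 1 against the earlier CD44LowKitNeg libraries and 0 within E9.5 and E10, with medians of 0.90 and 0.96, in fits that called only 61 and 2 of all genes. It was 1 without CD44LowKitPos replicate 17 (65 of all genes called), 6 without replicate 18 and 10 without replicate 19. Without CD44LowKitNeg replicates 11, 12 and 13 it was 9, 8 and 9. Against CD44Neg, none of the 40 was called in CD44LowKitPos, with a median of 0.39, where 3.48% of all genes were called. Compared with CD44Neg, 2 were higher and 1 was lower in CD44High, with a median of 0.24, where 14.4% of all genes were called.

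In CD44High 19 of the 40 were higher than in CD44LowKitNeg and 1 was lower, with a median of 1.29 beside 0 over all genes, of which 16% were called, and the count of higher genes was 7 against the earlier CD44LowKitNeg libraries. The count in either direction, 20, was 8 and 10 without CD44High replicates 20 and 22, and 11, 12 and 13 without CD44LowKitNeg replicates 11, 12 and 13. Between CD44LowKitPos and CD44High, where Mycn was called lower, the median was 0.08 and a single gene, the cyclin Ccnd2, passed, falling from 317.6 ± 103 to 40.1 ± 13.1 normalized CPM (-2.98, SE 0.42, edgeR adjusted p = 3.6e-05), where 3.01% of all genes were called, near the share of the list. Within CD44LowKitNeg, E11 had a median of -0.86 with 36 of 40 negative, and Npm1, nucleophosmin, was the single gene called (3786 ± 429 to 1135 ± 138, -1.69, SE 0.17, edgeR adjusted p = 0.0070), a call lost when any 1 of the 6 libraries was left out, where 0.173% of all genes were called. The list was also lower at E11 than at E9.5 in CD44Neg, where neither Myc nor Mycn passed, with a median of -0.62 beside 0.03 over all genes and 34 of 40 negative. There 2 of the 40 passed, beside 0.684% of all genes, 0 without any 1 of CD44Neg replicates 1, 2, 3, 4 and 7, and 4 without replicate 6. Of 8 genes reported to be repressed by MYC, 6 were tested between the endothelial populations and none passed by edgeR, with a median of 1.16. Of these, 2 had an unadjusted p under 0.05, and DESeq2 and limma voom called 1 higher.

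**Figure D5:**
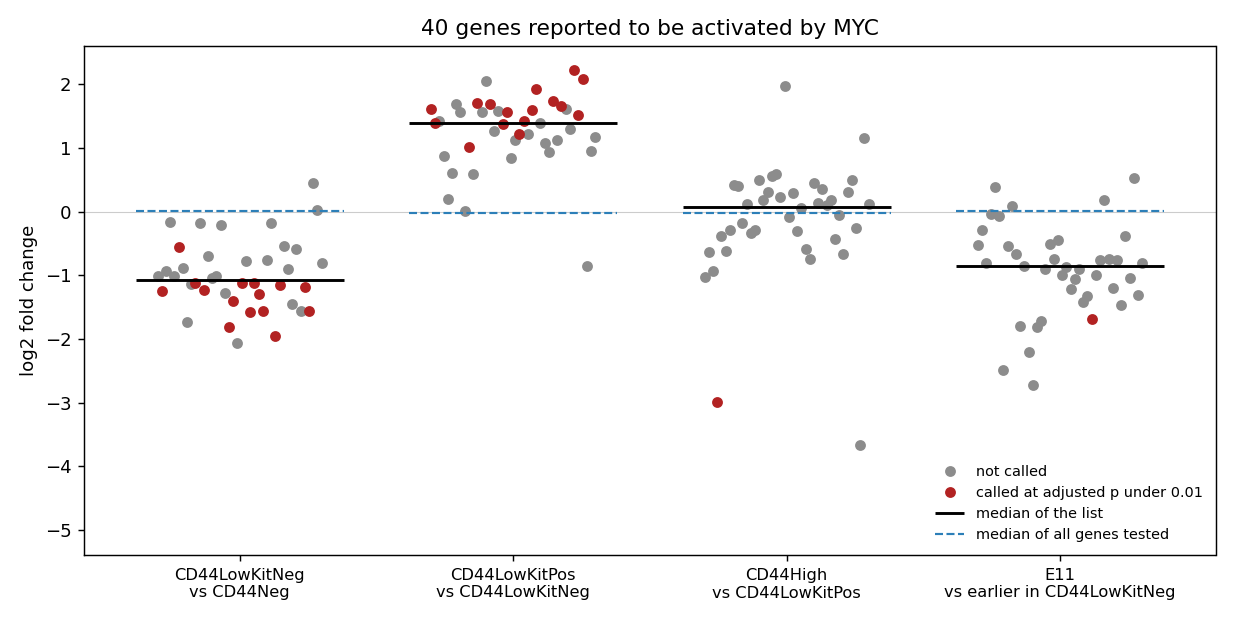
Log2 fold changes of the 40 genes reported to be activated by MYC in 4 comparisons; each dot is 1 gene, the black line the median of the list and the blue dashed line the median of all genes tested. The list lies below 0 between the endothelial populations (median -1.08), above 0 from CD44LowKitNeg to CD44LowKitPos (1.39), and around 0 from CD44LowKitPos to CD44High (0.08).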

How the data were processed

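Deposited values were raw read counts per gene symbol, which the authors made by clipping adaptors with FASTX, mapping with RNA STAR and counting with htseq-count on Galaxy; the labels name mm10, FastQC and HTSeq. Annotation, strand setting and versions are not given in the sources used here. Counts were analysed in R 4.3.3 with edgeR 4.0.16 (TMM, filterByExpr with a minimum count of 10 and a minimum total of 15, quasi-likelihood test, Benjamini-Hochberg adjustment over all genes tested, threshold 0.01). CD44LowKitNeg and CD44Neg were compared in a fit of their 16 libraries, the other populations in a fit of all 22, and stages within CD44Neg, within CD44LowKitNeg and over both at E10 and E11. DESeq2 1.42.0 and limma voom (limma 3.58.1), other scalings, no filter, stage as a covariate, single stages and each library left out were alternatives. No library was a duplicate of another of the same population and stage (chi-square per degree of freedom 15.3 to 77.1 over 20 replicate pairs). Pairs across populations or stages were not compared. Levels per kilobase used the longest GENCODE M21 transcript. RefSeq windows were matched by symbol.

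All 10 members were described. From each further list, up to 3 called genes per direction with the largest change between the endothelial populations were named, and genes named in other comparisons (Srm, Nop56, Ccnd2, Npm1, Tcf7) were chosen after their values were seen. The members and lists were chosen with earlier results of these data known. Fits without the E11 CD44LowKitNeg libraries were added after seeing that those libraries had no Runx1 count. On simulated data, 46 of 95 genes changed 4-fold and 13 of 99 changed 2-fold were recovered in the fit of the endothelial populations (10610 genes), and 16 of 94 changed 4-fold between stages of CD44LowKitNeg (10469 genes), but 0 of 97 changed 4-fold in the test of stage dependence (11891 genes). One further list is not reported here.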

Additional observations from a re-analysis of the deposited data

Results flagged for a closer look

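Of 29 groups of libraries checked for a member's level standing apart, 4 held a library far from the others, and chance gives about 1 in 20. Mycl was at 1.52 normalized CPM in CD44Neg replicate 4 and at 0 in the other CD44Neg libraries, both over all stages and within E9.5. Both flags concern the same library, and a single level above 0 is flagged by this rule whatever its size. The rate given for chance therefore does not apply to them. Mxd1 was at 22.2 in CD44Neg replicate 2, with the next library at 8.56. Mlx was at 11.7 in CD44Neg replicate 5, with the next library at 43.2. The difference in Mycn between CD44LowKitNeg and CD44Neg changed by -4.02 on the log2 scale from E10 to E11 (edgeR adjusted p = 0.0169), with every CD44LowKitNeg library above every CD44Neg library at E10 and below at E11.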

How the results depend on the processing

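No paired analysis was made. The replicate numbers run on across the populations, and nothing in the sources says which libraries came from the same embryos or sort. Over 81 tested differences of members, 1436 alternative values were computed, of which 1352 kept direction and side of the threshold, 16 lost the threshold, 18 gained it and 50 changed sign, and none of the 5 called differences changed sign. The causes were not tested. For CD44LowKitNeg against CD44Neg the number of genes called, 1121, became 2217 at a threshold of 0.05, 1749 by DESeq2, 376 within E11, 1 within E10 and 449 within E9.5 and E10 with stage as a covariate. For CD44LowKitPos against CD44LowKitNeg, 552 became 1619 at 0.05, 1243 by DESeq2, 1244 by limma voom, 366 with stage as a covariate, 2 within E9.5 and E10 and 61 with the earlier CD44LowKitNeg libraries. For CD44LowKitPos against CD44Neg, 451 became 941 at 0.05, 817 by DESeq2 and 729 by voom. For CD44High the counts became 784 at 0.05 and 716 by DESeq2 against CD44LowKitPos (390), 3471 at 0.05, 1160 within E11 and 1340 with the earlier libraries against CD44LowKitNeg (2067), and 2917 at 0.05 and 1055 within E11 against CD44Neg (1864). Stages of CD44Neg gave 352 at 0.05, 279 without a filter, 421 by DESeq2 and 172 by voom (77), and stages of CD44LowKitNeg 235, 163, 558 and 68 (19). The test of stage dependence gave 23 at 0.05, 190 without a filter and 118 by DESeq2 (1). With each library left out, these 9 counts ran from 875 to 1222, 65 to 687, 159 to 630, 251 to 392, 1334 to 2176, 1340 to 1867, 8 to 75, 0 to 2 and 0 to 3. DESeq2 size factors shifted the median of all genes to -0.16 and voom to 0.15 from CD44LowKitNeg to CD44LowKitPos, and voom to 0.16 from CD44LowKitNeg to CD44High. The split of higher and lower calls, 544 and 577 between the endothelial populations, was 642 and 498 with DESeq2 size factors. From CD44LowKitNeg to CD44LowKitPos it was 330 and 222, 218 and 273 with DESeq2 size factors and 420 and 823 by DESeq2. By DESeq2 it was 258 and 559 for CD44LowKitPos against CD44Neg (269 and 182), 996 and 1662 for CD44High against CD44LowKitNeg (1009 and 1058) and 854 and 1390 against CD44Neg (925 and 939). By voom these last were 1473 and 835, and 1123 and 678, and CD44High against CD44LowKitPos was 361 and 124 (101 and 289).

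Changes of sign concerned differences that did not pass in the analysis reported. Between the endothelial populations, Mycn was -1.15 by voom, -0.49 with stage as a covariate and -2.95 within E11, where it passed in the opposite direction (edgeR adjusted p = 0.0082), and Mxd1 and Mxd4 were -0.28 and -0.30 within E11. For CD44LowKitPos against CD44Neg, Max was -0.069 with stage as a covariate, Mxd4 was 1.37 by voom, 0.063 with stage as a covariate and 0.94 within E9.5 and E10, and Mxi1 was -0.37 by voom. For CD44High, Max was -0.0023 without a filter, Mxd1 -0.075 by voom and -0.94 with stage, and Mxi1 -0.69 with stage against CD44LowKitPos, Mycn was 0.12 within E11 and Mxd3 0.32 by voom against CD44LowKitNeg, and Mxd4 was -0.40 within E11 and Mlx -0.015 with stage against CD44Neg. By voom Mxd3 was -0.33 between stages of CD44Neg and Mxd1 -0.30 between stages of CD44LowKitNeg. With each library left out, Mycn between the endothelial populations ran from -0.27 to 0.35 and Mxd1 from CD44LowKitNeg to CD44LowKitPos from -0.023 to 0.81. For CD44LowKitPos against CD44Neg, Mxi1 ran from -0.33 to 1.18 and Mnt from -0.028 to 0.96. For CD44High against CD44LowKitPos, Max ran from -0.39 to 0.27, Mxd1 from -0.35 to 0.64 and Mnt from -0.30 to 0.74, and against CD44Neg Mxd4 ran from -0.025 to 0.87 and Mlx from -0.096 to 0.24. Between stages of CD44Neg, Mxd3 ran from -0.62 to 0.70, Mnt from -1.06 to 0.75 and Mlx from -0.041 to 0.55. Between stages of CD44LowKitNeg, Myc ran from -0.26 to 0.45, Mxd1 from -0.26 to 0.73, Mxd3 from -0.86 to 0.86 and Mnt from -0.81 to 0.36. In the test of stage dependence, Myc ran from -0.33 to 0.40, Mxd1 from -3.81 to 0.073 and Mxd3 from -1.60 to 0.57. Low counts of Mycl and the antagonists and groups of 3 libraries limit what these data can show.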
